A study of Mus musculus with 2 samples.

Results

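The cyclins, the cyclin-dependent kinases (CDKs), their inhibitors, the E2F transcription factors, the CDC25 phosphatases and the retinoblastoma family were followed in mouse lung. The lungs were labelled as 12 weeks after treatment with a chemical carcinogen and a tumour promoter. Genes were taken by symbol pattern from the array's annotation, which gave 52 genes of 13840 with a probe of their own. Ccng1 was left out by the rule and had no single-gene probe. The pattern goes by name, so it also took genes whose symbols only begin with that of a CDK or an inhibitor, such as Cdk5rap3 and Cdkn2aip. A further 15 protein-coding RefSeq genes of the same pattern had no single-gene probe in the table used here, among them Ccnb1, Ccne2, Cdk2, Cdkn2c, E2f1 and E2f3. Each regulator rests on 1 probe, except Ccnb3 with 2 probes.

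The data are 1 array of Rosa26-Foxm1 lung and 1 array of wild-type lung, each hybridised with RNA pooled from the left lobes of 3 mice. Rosa26-Foxm1 mice are transgenic for the forkhead transcription factor Foxm1, and their name refers to the Rosa26 locus, which is known for activity in most tissues; the labels used here give neither their sex nor their strain. Wild-type mice were labelled as male FVB/N. Both groups had received 1 intraperitoneal dose of 3-methylcholanthrene (MCA, a carcinogen, 15 µg per g body weight) and then 6 weekly injections of butylated hydroxytoluene (BHT, a lung tumour promoter), the first at 150 µg/g and the later ones at 200 µg/g, so there is no lung without carcinogen among these arrays. With 1 array per group no test between the genotypes was possible, and all comparisons describe these 2 pools. In whole lung, fewer cells of a type and less RNA per cell cannot be told apart.

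Cyclins switch on CDKs, each in its own part of the cell cycle. D-type cyclins with Cdk4 and Cdk6 start the phosphorylation of the retinoblastoma proteins, which releases E2F factors to transcribe the genes of S phase, and cyclins E, A and B carry the cycle on through replication into mitosis. Inhibitors of the Cip/Kip and INK4 classes hold the kinases back, CDC25 phosphatases remove inhibitory phosphates from them, and the pocket proteins with repressing E2F factors keep cycle genes silent in resting cells. Foxm1 acts late in the cycle and is recruited to cell cycle genes homology region (CHR) elements of mitotic promoters together with the MuvB complex. In the adult lung most cells rest, and more of them enter the cycle after injury and in tumours.

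Promoters of 3 regulators are shown because each holds a match to the CHR element or to E2F sites and because the genes stood in different places in the data. Ccnb2 was higher in Rosa26-Foxm1 lung, Cdk1 was below the measurable range on both arrays, and Cdc25a was lower. The sequences are RefSeq's (GRCm38.p6), from 250 bases before the annotated gene start to 30 after it, 5′ to 3′. Capitals mark the matches on either strand to the CHR element TTTGAA, to the E2F sites TTCGCGC or TTGGCGC or TTCCCGC and to the CCAAT box. Ccnb2 is at chr9:70421525-70421804 on the minus strand, Cdk1 at chr10:69352883-69353162 on the minus strand and Cdc25a at chr9:109875329-109875608 on the plus strand.
Ccnb2: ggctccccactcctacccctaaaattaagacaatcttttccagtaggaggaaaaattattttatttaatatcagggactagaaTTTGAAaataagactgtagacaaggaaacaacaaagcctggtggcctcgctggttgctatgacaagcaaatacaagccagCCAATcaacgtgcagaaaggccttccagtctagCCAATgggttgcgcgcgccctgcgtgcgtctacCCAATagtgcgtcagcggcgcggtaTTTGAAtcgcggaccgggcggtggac
Cdk1: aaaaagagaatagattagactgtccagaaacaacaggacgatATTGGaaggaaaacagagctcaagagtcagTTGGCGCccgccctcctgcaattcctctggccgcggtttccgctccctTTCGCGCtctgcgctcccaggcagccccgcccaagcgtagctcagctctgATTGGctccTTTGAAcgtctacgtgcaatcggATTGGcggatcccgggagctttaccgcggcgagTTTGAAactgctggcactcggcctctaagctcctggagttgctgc
Cdc25a: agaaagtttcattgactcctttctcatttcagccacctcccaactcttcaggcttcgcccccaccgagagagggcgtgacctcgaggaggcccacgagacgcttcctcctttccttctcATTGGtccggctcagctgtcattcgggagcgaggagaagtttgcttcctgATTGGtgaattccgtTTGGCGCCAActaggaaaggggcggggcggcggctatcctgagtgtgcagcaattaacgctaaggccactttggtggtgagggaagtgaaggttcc
The Ccnb2 window held 2 CHR matches and 3 CCAAT boxes, with no E2F match. The Cdk1 window held 2 CHR matches, 2 E2F matches and 3 CCAAT boxes. In the Cdc25a window, 2 CCAAT boxes stood before a pair of E2F matches that overlap each other on opposite strands, and there was no CHR match.

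Values are normalised probe intensities, which have no absolute unit. The deposited intensities of both arrays were quantile normalised, and an intensity at or below the median of all probes, 1.00, was set to that floor. Genes past the floor on 1 array or both count as measured. Differences are log2 values, Rosa26-Foxm1 minus wild type, and where 1 array was below the floor they are bounds. Counts and medians take such a gene at its bound, so it may differ by more than it is counted for; among the regulators these genes are Cdkn1b and Cdk3. The only error that could be measured is the disagreement between probes of the same gene. The probe SD, the SD that this gives for 1 probe's log2 difference, came from 317 genes with 2 or more measured probes. It was 0.31 in all, 0.38 for the dimmer and 0.23 for the brighter pairs of probes, split at an intensity of 10.50. It leaves out differences between mice.

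As a group the regulators differed little between the genotypes. Of the 52 genes, 44 were measured, 42 of them on both arrays, and 8 were below the floor on both. The median log2 difference over the 44 was -0.07, against -0.06 over all 9518 measured genes. Ccnb2 and Cdkn2aip, 2 of the 44, differed by 1.5-fold or more upward, a size reached by 7.08% of all measured genes. Ccnt2, Cdk14, Cdk17 and Rbl2, 4 of the 44, were at least 1.5-fold lower, against 8.45% of all measured genes. At the 2-fold size Cdkn2aip alone was higher (1.98% of all genes) and none was lower (1.51%). These shares are close to those over all genes and do not set the regulators apart. With loess scaling 3 were higher and 3 lower at 1.5-fold, against 7.81% and 7.56% of all genes. Within the probe SD of 0 lay 28 of the 44, against 57.2% of all genes, with 6 above it (18.8%) and 10 below it (23.9%).

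The differences past 1.5-fold were all in genes of lower intensity. When the measured genes were ordered by mean intensity into 4 classes of equal size, the 8 regulators of the dimmest class (mean intensity 0.366 to 3.00) included the 2 higher ones and Cdk17. In that class 13.0% of all genes were 1.5-fold higher and 13.8% lower. The second class (3.00 to 9.14) held 13 regulators, with none higher and 3 lower, against 6.01% and 8.36% of its genes. The 11 and 12 regulators of the 2 brightest classes included none past 1.5-fold in either direction, where 5.17% and 4.16% of genes were higher and 5.72% and 5.88% lower. A gene that is measured only through its brighter array had to differ, which adds to the calls in the dimmest class.

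**Figure D1:**
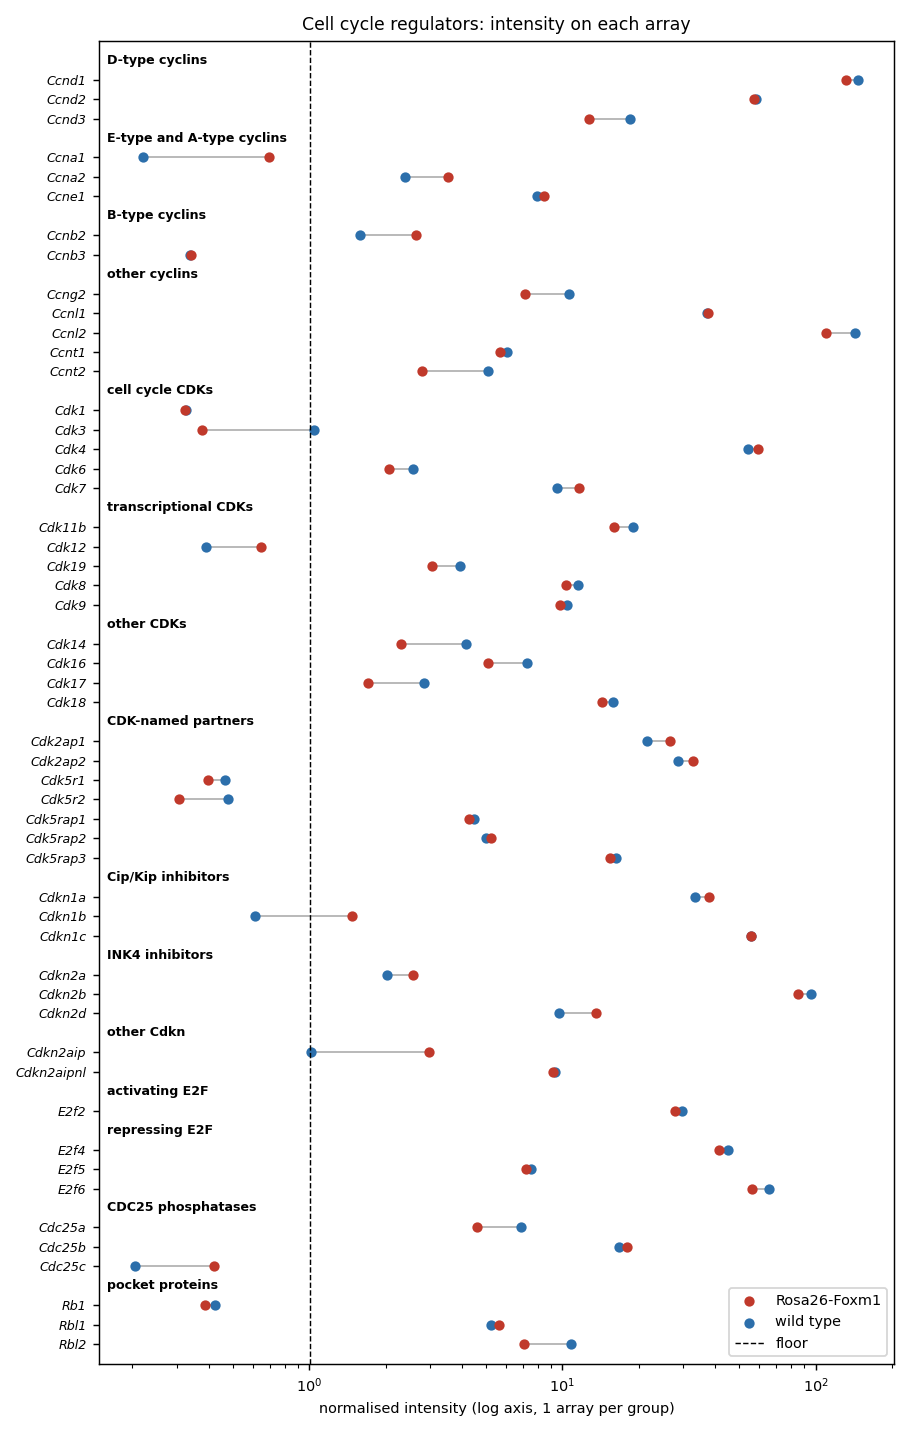
Normalised intensity (x axis, log scale, no absolute unit) of each of the 52 regulators on the Rosa26-Foxm1 array (red) and the wild-type array (blue), grouped by role, with the floor of 1.00 as a dashed line. Most pairs of points nearly coincide, such as Ccnd2 at 57.0 in Rosa26-Foxm1 and 58.0 in wild type. Above the floor, Cdkn2aip, Ccnb2, Cdk14 and Ccnt2 are set apart at low intensities. Points are drawn without the floor, and wide gaps also lie across or below it. Examples are Cdk3 (0.378 in Rosa26-Foxm1, 1.05 in wild type) and Ccna1 (0.695 in Rosa26-Foxm1, 0.221 in wild type).

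Among the D-type cyclins, which couple growth signals to Cdk4 and Cdk6, one was lower by more than the probe SD. Ccnd3, the D-type cyclin best known from lymphocytes, had 12.8 in Rosa26-Foxm1 lung and 18.5 in wild-type lung, a log2 difference of -0.53. Ccnd1, a cyclin often raised in lung tumours, had 132 in Rosa26-Foxm1 and 147 in wild type (-0.16), within the error of bright probes. Ccnd2 had 57.0 in Rosa26-Foxm1 and 58.0 in wild type (-0.03, and 0.04 with median scaling). The deposited intensities of Ccnd1 before normalisation were 139 on both arrays.

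The cyclins of S phase and mitosis that could be measured were all above 0, against 4179 of all 9518 measured genes. Ccnb2, a B-type partner of Cdk1, had 2.64 in Rosa26-Foxm1 lung and 1.59 in wild-type lung, a log2 difference of 0.73 (1.66-fold), higher than 95.9% of all measured genes by rank. Ccna2, the somatic A-type cyclin needed for replication and entry into mitosis, had 3.54 in Rosa26-Foxm1 and 2.38 in wild type (0.57, 1.49-fold). Ccne1, the E-type partner of Cdk2 at the start of S phase, had 8.45 in Rosa26-Foxm1 and 7.90 in wild type (0.10), a difference smaller than the probe SD. Ccna2 and Ccnb2 differed by more than the 0.38 of dim probes, and both lie close to the floor. Ccna1 and Ccnb3, known mainly from germ cells, were below the floor on both arrays.

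Cdk1, the kinase that Ccna2 and Ccnb2 activate, was below the floor on both arrays, at 0.321 in Rosa26-Foxm1 and 0.326 in wild type, so its single probe gives no comparison. The fixed list of proliferation markers stands beside the 2 cyclins. Of 14 measured markers, 3 were at least 1.5-fold higher (Birc5, Aurka and Bub1) and 1 was lower (Ube2c), against 7.08% and 8.45% of all measured genes, with a median log2 difference of 0.15. Their intensities summed to 906 in Rosa26-Foxm1 and 1667 in wild type, a sum that is mostly Ube2c, and without it to 57.2 in Rosa26-Foxm1 and 47.5 in wild type. Kif11, Cenpe and Ttk were below the floor on both arrays. What part the share of cycling cells has in the values of Ccna2 and Ccnb2 was not tested. Foxm1 itself had 1.23 in Rosa26-Foxm1 and 1.13 in wild type (0.11), close to the floor. The target of its probe was not examined, so this value does not check the genotype labels.

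The other kinases of the cycle that were above the floor on both arrays were near 0. Cdk4 had 59.4 in Rosa26-Foxm1 lung and 53.9 in wild-type lung (0.14, and -0.04 after correction for gene length). Cdk6, the second partner of the D-type cyclins, had 2.07 in Rosa26-Foxm1 and 2.56 in wild type (-0.31). Cdk7, which activates other CDKs and is part of the transcription factor TFIIH, had 11.6 in Rosa26-Foxm1 and 9.51 in wild type (0.29). None of the 3 passed the overall probe SD. Cdk7 passed only the 0.23 of brighter probes, and its mean intensity of 10.52 is barely above the split at 10.50. Its difference did not pass the 0.38 of dimmer probes. Cdk3 was below the floor in Rosa26-Foxm1 lung and at 1.05 in wild type, at least 1.04-fold lower. Without a floor its log2 difference was -1.47.

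The kinases outside the core cycle were below 0 throughout. All 8 measured CDKs of the transcriptional and other classes were below 0, and this held under each of the 10 alternative settings in which they were measured. Over all genes, 56% were below 0. Cdk14, a kinase that with cyclin Y acts on Wnt receptors, had 2.30 in Rosa26-Foxm1 lung and 4.16 in wild-type lung, a log2 difference of -0.86 (1.81-fold lower). The PCTAIRE kinase Cdk17 had 1.71 in Rosa26-Foxm1 and 2.83 in wild type (-0.73), and its relative Cdk16 had 5.07 in Rosa26-Foxm1 and 7.27 in wild type (-0.52). Cdk18, the other member of that family, differed by -0.15. Cdk14, Cdk16 and Cdk17 were thus lower by more than the probe SD, and Cdk18 was not.

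Among the kinases of transcription the differences were smaller. The Mediator kinases Cdk8 and Cdk19 differed by -0.15 and -0.36, the elongation kinase Cdk9 by -0.10 and the splicing-linked Cdk11b by -0.24. Cdk12, which phosphorylates RNA polymerase II, was below the floor on both arrays. The cyclins of these kinases include Ccnt1 and Ccnt2, which pair with Cdk9. Ccnt2 had 2.79 in Rosa26-Foxm1 lung and 5.07 in wild-type lung (-0.86, 1.82-fold lower), whereas Ccnt1 had 5.64 in Rosa26-Foxm1 and 6.02 in wild type (-0.09). The splicing-linked cyclins Ccnl1 and Ccnl2 also stood apart, with Ccnl1 at 0.02 and Ccnl2 at -0.38, where Ccnl2 had 110.1 in Rosa26-Foxm1 and 143.6 in wild type. The atypical cyclin Ccng2, which restrains proliferation and is known from resting cells, had 7.09 in Rosa26-Foxm1 and 10.6 in wild type (-0.58).

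**Figure D2:**
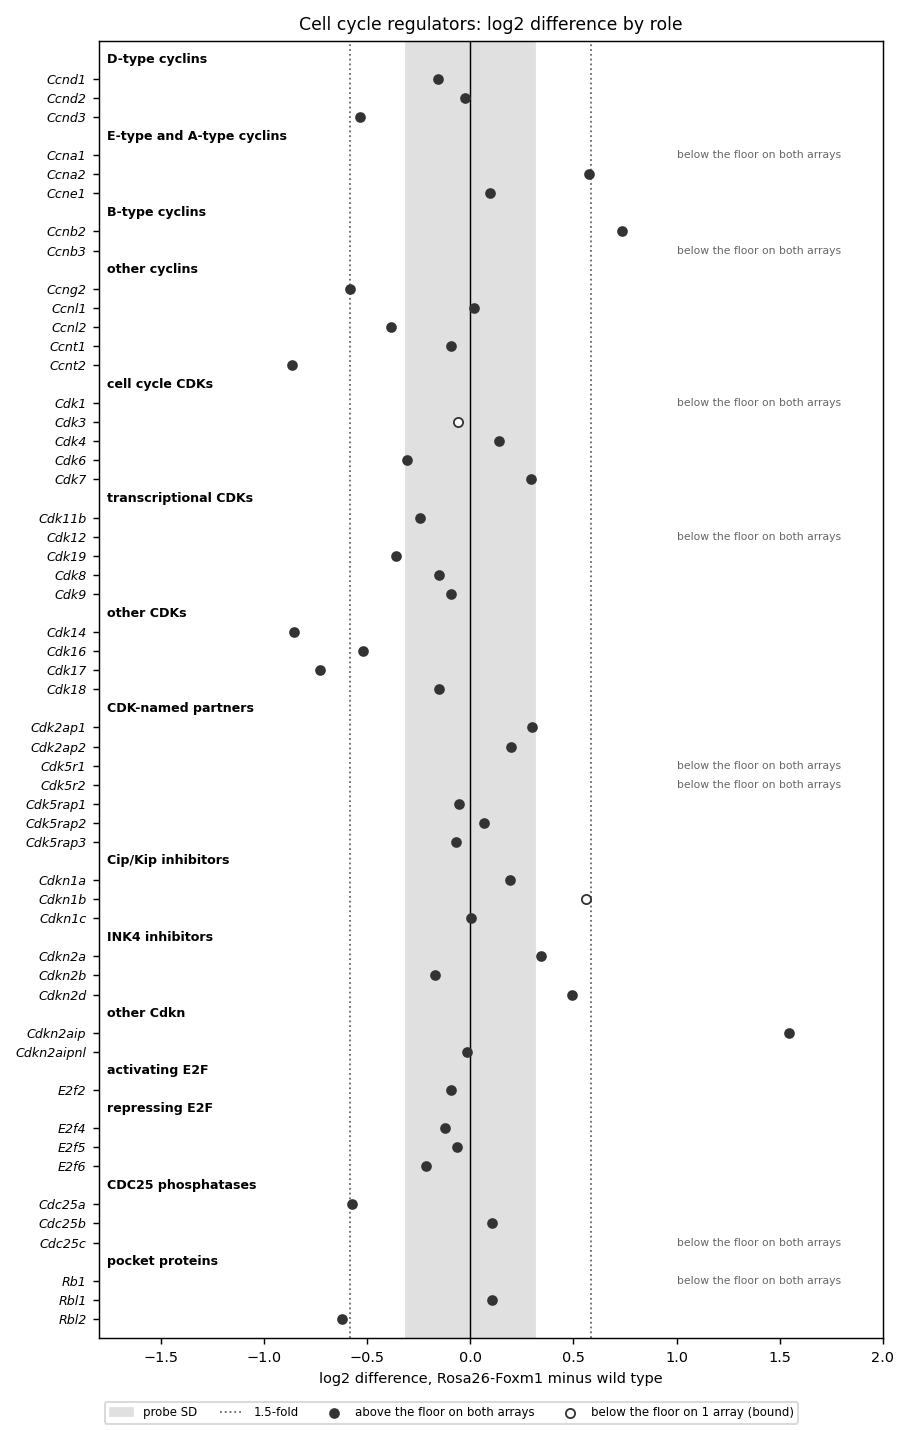
Log2 difference (x axis, Rosa26-Foxm1 minus wild type) of each regulator by role. The grey band is the probe SD of 0.31 on each side of 0, dotted lines mark 1.5-fold, and open circles are bounds for genes below the floor on 1 array. All points of the transcriptional and other CDKs are left of 0, from -0.10 for Cdk9 to -0.86 for Cdk14, and Cdkn2aip is farthest right at 1.54.

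The genes whose symbols extend that of Cdk2 or Cdk5 differed by less than the overall probe SD in all 5 measured cases, although Cdk2ap1 passed the 0.23 of brighter probes. Cdk2ap1 and Cdk2ap2, subunits of the NuRD chromatin complex, were at 0.30 and 0.20, with Cdk2ap2 at -0.01 after correction for gene length. The centrosomal protein gene Cdk5rap2 was at 0.06, Cdk5rap1 at -0.06 (0.11 after correction for gene length) and Cdk5rap3 at -0.07. Cdk5r1 and Cdk5r2, the neuronal activators of Cdk5, were below the floor on both arrays.

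Of the 6 measured inhibitors of the Cip/Kip and INK4 classes, 5 were above 0, against 4179 of all 9518 measured genes. The 5 measured on both arrays were all under 1.5-fold, and for Cdkn1b there is a lower bound. Cdkn2d, the INK4 protein p19, had 13.6 in Rosa26-Foxm1 lung and 9.65 in wild-type lung, a log2 difference of 0.49 that passed the 0.23 of brighter probes, and 0.29 after correction for gene length. Cdkn2a, which encodes both the INK4 protein p16 and the p53 activator Arf, had 2.58 in Rosa26-Foxm1 and 2.03 in wild type (0.34), and which of its products the probe reads was not examined. Cdkn2b, its neighbour encoding p15, had 85.1 in Rosa26-Foxm1 and 96.0 in wild type (-0.17). The INK4 genes therefore lay on both sides of 0.

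Of the Cip/Kip inhibitors, Cdkn1b was dim and below the floor on 1 array, while Cdkn1a and Cdkn1c were brighter on both. Cdkn1b, which encodes p27, the inhibitor of resting cells, had 1.48 in Rosa26-Foxm1 lung, at least 1.48-fold higher than in wild-type lung, where it was below the floor. Without a floor, or with the floor at the 25th percentile, it was at 1.27 on the log2 scale, past 1.5-fold. Cdkn1a, which encodes p21, the p53-induced inhibitor, had 38.0 in Rosa26-Foxm1 and 33.3 in wild type (0.19). Cdkn1c, the imprinted gene of p57, had 55.8 in Rosa26-Foxm1 and 55.6 in wild type (0.00, and -0.21 after correction for gene length). Both brighter genes lay within the error of bright probes.

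Cdkn2aip, whose protein CARF binds Arf and regulates p53, showed the largest difference of all the regulators. It had 2.97 in Rosa26-Foxm1 lung and 1.02 in wild-type lung, a log2 difference of 1.54 (2.92-fold), at the 99.4th percentile of all measured genes. Its deposited intensities were 2.92 in Rosa26-Foxm1 and 1.02 in wild type, and the wild-type value is barely above the floor. The related gene Cdkn2aipnl had 9.22 in Rosa26-Foxm1 and 9.32 in wild type (-0.02, and 0.03 with loess scaling).

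The 4 measured E2F factors were all slightly below 0, against 56% of all measured genes, and none passed the probe SD. The activator E2f2 had 27.9 in Rosa26-Foxm1 lung and 29.8 in wild-type lung (-0.10). The repressors that bind pocket proteins, E2f4 and E2f5, differed by -0.12 and -0.06, and E2f6, which represses without them, had 56.2 in Rosa26-Foxm1 and 65.2 in wild type (-0.22). The 1 measured activator and the 3 measured repressors thus had similar small values. E2f1, E2f3, E2f7 and E2f8 had no single-gene probe.

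The pocket proteins and CDC25 phosphatases each held 1 member that was lower. Rbl2, which encodes p130, the pocket protein of resting cells and of the DREAM complex, had 7.03 in Rosa26-Foxm1 lung and 10.8 in wild-type lung (-0.62, 1.54-fold lower). Rbl1, which encodes p107 and is itself made in cycling cells, had 5.62 in Rosa26-Foxm1 and 5.22 in wild type (0.11). Rb1 was below the floor on both arrays. Cdc25a, the phosphatase that activates Cdk2 and Cdk1, had 4.60 in Rosa26-Foxm1 and 6.85 in wild type (-0.58). Cdc25b, which acts at the entry to mitosis, had 18.0 in Rosa26-Foxm1 and 16.8 in wild type (0.11), and Cdc25c was below the floor on both arrays. Just under the 1.5-fold size lay Ccng2 (-0.58 on the log2 scale), Cdc25a (1.49-fold) and Ccna2 (1.49-fold), and just past it Rbl2, so the counts at this size turn on small shifts.

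**Figure D3:**
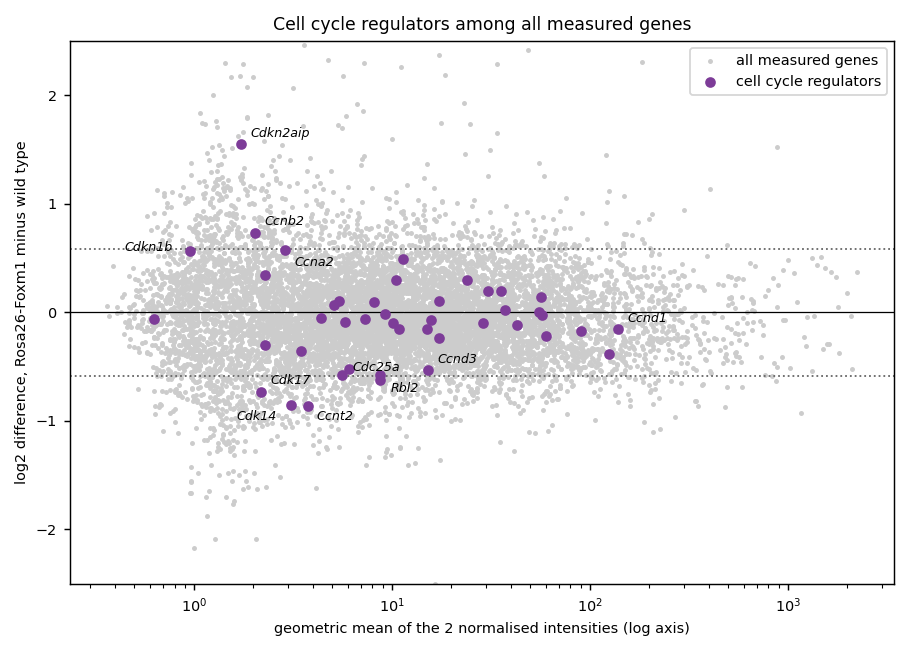
Log2 difference (y axis, Rosa26-Foxm1 minus wild type) against the geometric mean of the 2 normalised intensities (x axis, log scale) for all 9518 measured genes (grey) and the 44 measured regulators (purple); 21 genes beyond 2.5 on the y axis are not drawn and dotted lines mark 1.5-fold. The spread of all genes is widest at low intensity, where Cdkn2aip, Ccnb2, Cdk14, Cdk17 and Ccnt2 lie.

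Other parts of the pathway were read from 2 fixed lists. The list of CDK partners (activating subunits, inhibitory kinases, ubiquitin ligase subunits, E2F dimer partners and DREAM components) had 33 measured genes of 38 with a probe and a median log2 difference of 0.00, with 1 at least 1.5-fold higher and 1 lower, against 7.08% and 8.45% of all measured genes. Pkmyt1, the kinase that inhibits Cdk1, was below the floor in wild type and at least 1.58-fold higher, and the cyclin Ccnj (0.43) and the CDK subunit Cks1b (0.42) were the next highest. Cables2 had 1.67 in Rosa26-Foxm1 and 2.97 in wild type (-0.84), its relative Cables1, a CDK adaptor, was at -0.54, and the Rb-binding Rbbp7 at -0.39. Rbbp7 had 2 measured probes that differed, and the median over them was -0.15. The E2F partners Tfdp1 and Tfdp2 were at -0.05 and 0.13.

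The list of E2F target genes of S phase had 37 measured genes of 43 with a probe and a median of 0.09. Lig1, the replicative DNA ligase, had 5.08 in Rosa26-Foxm1 lung and 3.01 in wild-type lung (0.76), Uhrf1, a factor that maintains DNA methylation, was at 0.72 and the licensing factor Cdc6, below the floor in wild type, had a lower bound of 0.59. Cdc6 was past 1.5-fold under 4 of the 8 alternatives that measured it, and fell short at 0.57 with median scaling, the deposited values and loess, and at 0.58 after correction for gene length. With genes below the floor on 1 array taken at their bounds, these 3 of the 37 were counted as at least 1.5-fold higher and 0 as lower, against 7.08% and 8.45% of all measured genes. Cdc7 and Tyms, below the floor in Rosa26-Foxm1, and Hells, below it in wild type, have bounds under 1.5-fold and may lie past it. Usp1, the replicative polymerase subunit Pole and the chromatin assembly subunit Chaf1a were lowest, at -0.37, -0.39 and -0.43. Beyond the probe SD, 10 of the 37 were above and 4 below, with 23 within, against 18.8%, 23.9% and 57.2% of all measured genes. The members of both lists are described only, since the lists were drawn up with results of these arrays known.

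Values of other cell types moved between the arrays beside these differences. The counts at 1.5-fold that follow stand beside 7.08% (higher) and 8.45% (lower) over all genes. Of 19 measured endothelial markers, 12 were at least 1.5-fold lower and none higher, and their summed intensity was 1735 in Rosa26-Foxm1 and 2710 in wild type, with Erg below the floor in Rosa26-Foxm1. Of 17 macrophage markers, 11 were higher and 2 lower, with sums of 2854 in Rosa26-Foxm1 and 2137 in wild type. Without Lyz2, the brightest, the sums were 2114 in Rosa26-Foxm1 and 1087 in wild type. Marco, a lower one, was below the floor in Rosa26-Foxm1. Of 15 T and B lymphocyte markers, 5 were higher (Cd3g, Cd28, Thy1, Jchain and Mzb1) and 3 lower (Ms4a1, Cr2 and Cxcr5). Thy1 was below the floor in wild type. The sums were 546 in Rosa26-Foxm1 and 190 in wild type, or 133 in Rosa26-Foxm1 and 141 in wild type without Jchain. Cd4 and Pax5 were below the floor on both arrays. Of 16 alveolar and airway epithelial markers, 1 was higher and none lower, with sums of 8885 in Rosa26-Foxm1 and 10184.5 in wild type. The surfactant genes, markers of the labelled tissue, lay on both sides. Sftpc had 859 in Rosa26-Foxm1 and 1228 in wild type, and Sftpb 1438 in Rosa26-Foxm1 and 1757 in wild type. Sftpd, the higher marker counted above, had 413 in Rosa26-Foxm1 and 216 in wild type. Sftpa1 had 1757 in Rosa26-Foxm1 and 1236 in wild type. The part of these cell types in the values of Ccnd3, Rbl2, Ccng2 and the other lower regulators was not tested.

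Longer genes were lower in Rosa26-Foxm1 lung, over all genes and among the regulators. With genes ordered by genomic length into 3 classes of equal size, the median log2 difference of all genes was 0.09 in the shortest, -0.08 in the middle and -0.17 in the longest class. The 18, 16 and 10 regulators of these classes had medians of 0.05, -0.09 and -0.33. Pearson's r of the difference with log10 length was -0.23 (Spearman's rho -0.27) over 9514 genes and -0.48 (rho -0.45) over the 44 regulators, as a description of genes that share the same 2 arrays. Cdk14 spans 577 kb, Cdk6 190.0 kb, Cdk19 135 kb, Ccnd3 94.6 kb and Cdk17 90.2 kb. After correction of all genes for length, Cdk14 was at -0.64, Cdk17 at -0.60, Ccnd3 at -0.40, Cdk19 at -0.20 and Cdk6 at -0.13, and Ccnt2, of 30.7 kb, at -0.82.

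**Figure D4:**
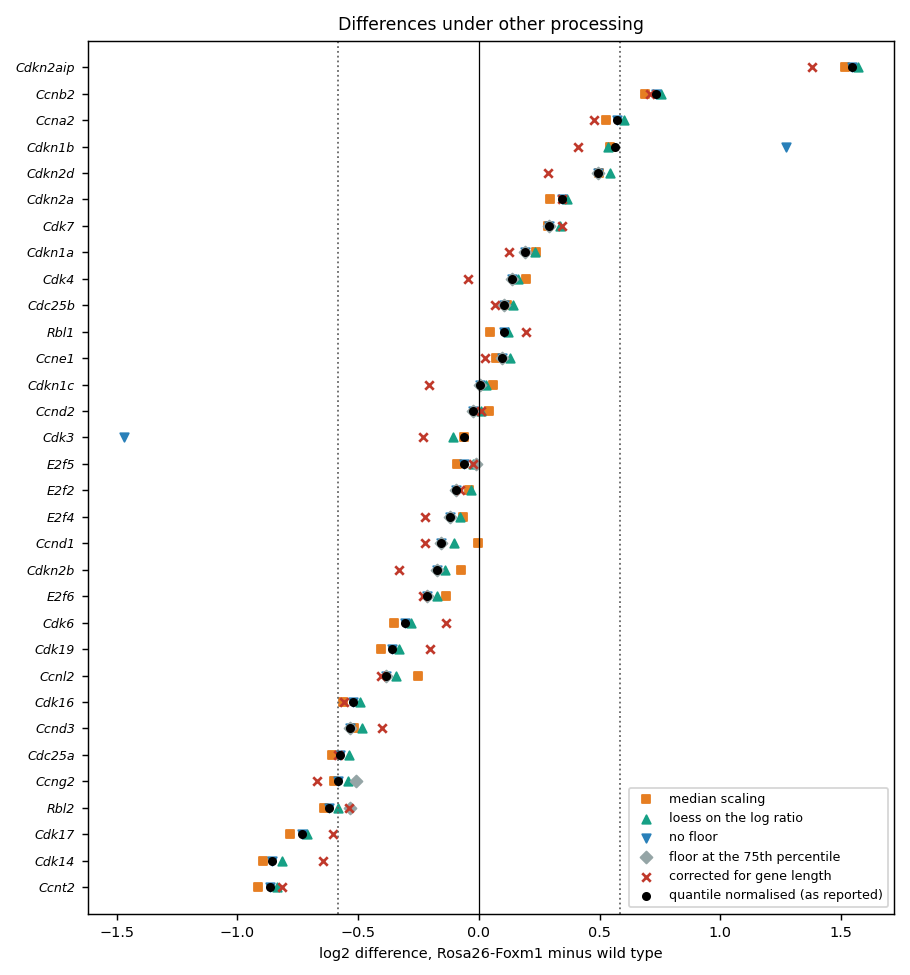
Log2 difference (x axis, Rosa26-Foxm1 minus wild type) of 32 regulators under the reported processing (black) and 5 alternatives. Dotted lines mark 1.5-fold. Cdkn1b and Cdk3, each below the floor on 1 array, move to 1.27 and -1.47 without a floor, while Ccnb2 stays between 0.69 and 0.76 and Ccnt2 between -0.91 and -0.82.

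Regulators with each promoter element lay on both sides of 0. RefSeq promoter windows, from 250 bases before to 50 after the gene start, were matched for 40 of the 52 genes, 6 of them with 2 windows, and both strands were searched. An E2F match stood in 10 of the 40 (25%), against 9.20% of all 27025 genes with a window; a CHR match in 8 (20%), against 20.2%; and a CCAAT box in 20 (50%), against 41.1%. The 7 measured genes with an E2F match ran from -0.86 for Ccnt2 to 0.34 for Cdkn2a, with a median of 0.02. The 7 measured genes with a CHR match ran from -0.62 for Rbl2 to 0.73 for Ccnb2, with a median of -0.10. The 22 measured genes with neither had a median of -0.08. Some matches share bases, such as a CCAAT box and an E2F match at the gene start of Ccnt2. A match describes letters in the window and was not tested as a site.

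**Figure D5:**
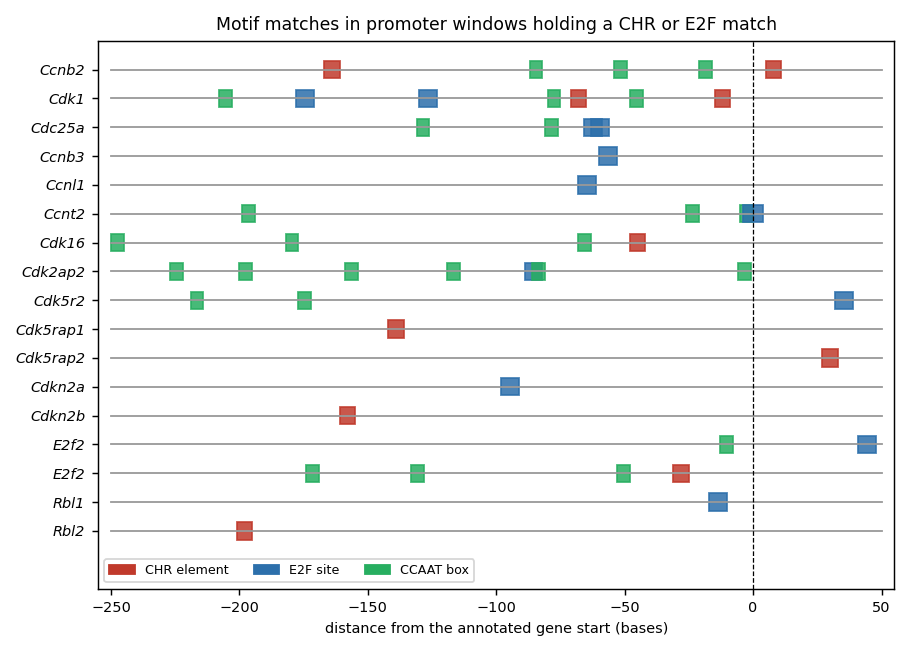
Matches to the CHR element (red), the E2F sites (blue) and the CCAAT box (green) in 17 promoter windows of 16 regulators that hold at least 1 CHR or E2F match, by distance from the annotated gene start in bases (x axis). Ccnb2 and Cdk1 each show 2 CHR matches and 3 CCAAT boxes, and Cdc25a the overlapping pair of E2F matches.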

How the data were processed

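The authors deposited linear probe intensities, 1 per probe and array, with medians of 1.00 on both arrays; their image software, background correction and scaling are not stated in the labels. Per the labels' protocols, 1-colour arrays received digoxigenin-labelled cRNA (Applied Biosystems chemiluminescent chemistry). Of 33012 probes, 14411 carried 1 gene in the platform annotation, 247 several and 18354 none in the table used here; symbols were updated by gene ID to RefSeq (GRCm38.p6), and 13832 of 13840 genes matched. Values were quantile normalised between the 2 arrays, set to a floor at the 50th percentile and taken as log2; a gene was represented by its brightest measured probe. No detection calls were used. The number of arrays, 1 per group, limits the precision.

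The members, roles, lists and the rule for named genes (every member by role, the 3 highest and lowest of each list, Foxm1) were chosen with earlier results of these data known. Alternatives were median scaling, unscaled deposited values, a loess fit of log ratio on intensity (span 0.3), no floor or a floor at the 25th or 75th percentile, measurement on both arrays or by the mean, and the median over probes; correction for genomic gene length was added after seeing the data. The calculation was tested on simulated data. Changes were put only into genes with a brighter probe, so the simulation did not cover changes near the floor. Python 3.11.15, pandas 2.3.3, numpy 2.4.6 and statsmodels 0.14.6 were used.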

Additional observations from a re-analysis of the deposited data

How the results depend on the processing

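The median over the regulators lay between -0.08 and -0.03 under all 10 alternatives. That of the CDK partner list ran from 0.00 to 0.07, the latter with loess. The median of the E2F target list, 0.09 as reported, ran from 0.01 with the floor at the 75th percentile to 0.15 with loess. The number of regulators at least 1.5-fold higher was 2 as reported, 5 with the floor at the 25th percentile (50 measured) and 0 with the floor at the 75th percentile (27 measured). Over all genes, 7.08%, 10.9% and 4.31% were higher under these settings, in that order. The number at least 1.5-fold lower was 4 as reported, 0 with the floor at the 75th percentile, and 6 with median scaling and with the deposited values. Over all genes, 8.45%, 5.24%, 8.46% and 8.48% were lower under these settings, in that order. With that highest floor most dim genes, Ccnb2, Cdkn2aip, Cdk14, Cdk17 and Ccnt2 among them, were no longer measured; where they were measured, these 5 stayed past 1.5-fold. Rbl2 was past it under 7 of 10 alternatives, with -0.58 under loess, -0.54 after correction for gene length and -0.53 with the highest floor. No regulator past 1.5-fold turned its direction. No paired analysis was possible because each group had 1 array. Dim probes and the single array per group limit what can be said.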
